A study of Saccharomyces cerevisiae with 15 samples.

Results

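The mitochondrial pyruvate and metabolite carriers were followed as 10 genes of the 6224 that the arrays measured. They comprised the 3 subunits of the mitochondrial pyruvate carrier (MPC1, YGL080W; MPC2, YHR162W; MPC3, YGR243W) and 7 single-gene carriers of the inner membrane (OAC1, YKL120W; DIC1, YLR348C; SFC1, YJR095W; CTP1, YBR291C; ODC1, YPL134C; ODC2, YOR222W; MIR1, YJR077C). All 10 symbols matched a systematic name on the array and each gene was read by 1 probe. The set was put together because of its function and because MPC3 was known to be higher in these 5Mel cultures than in Control cultures. Differences between 5Mel and Control are therefore given below as a description with no test, and so is every MPC3 difference that uses those arrays.

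The strain was QA23, a commercial wine yeast (Saccharomyces cerevisiae), grown in rich glucose medium (YPD) in all conditions. There were 5 conditions with 3 arrays each, all sampled at the same time. Condition 5Mel received 5 µM melatonin and no peroxide. Condition H received 2 mM H2O2 and no melatonin, 5MelH received 5 µM melatonin and 2 mM H2O2, and 25MelH received 25 µM melatonin and 2 mM H2O2. Condition Control received neither compound. Melatonin was present during growth, and peroxide was added to exponentially growing cells shortly before the harvest. Each culture's RNA was labelled with Cy3 and hybridised to an Agilent 1-colour array.

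Pyruvate made by glycolysis in the cytosol enters the mitochondrial matrix through the mitochondrial pyruvate carrier, which in yeast is a heterodimer of Mpc1 with either Mpc2 or its paralog Mpc3. The form with Mpc2 is known from cells fermenting sugar and the form with Mpc3 from respiring cells. Citrate, succinate, fumarate, malate, oxaloacetate, 2-oxoglutarate and phosphate cross the same membrane through members of the mitochondrial carrier family. These carriers connect the citric acid cycle with amino acid synthesis, with gluconeogenesis and with ATP production.

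Levels are log2 intensities relative to the 75th percentile of the same array, so 0 means as bright as that percentile. They can be compared between arrays for 1 gene but not between genes, because probes differ in how well they hybridise. Array 75th percentiles lay between 2274 and 3552 intensity units in the 9 peroxide-treated cultures, between 5187 and 5576 in 5Mel and between 4186 and 5922 in Control. The share of genes that the scanner software set well above background ran from 86.3% to 95.3% over the arrays. All 150 member values (10 genes on 15 arrays) were well above background and none of their spots had been left out. The arrays lay on 2 slides, and every condition had arrays on both. In a second deposited table of normalised values, the columns of 9 arrays held the values of another condition. The scanner tables were used here, and their low percentiles fall on the arrays labelled as peroxide-treated. RNA came from whole cultures, in which fewer expressing cells and less RNA per cell cannot be told apart.

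**Figure D1:**
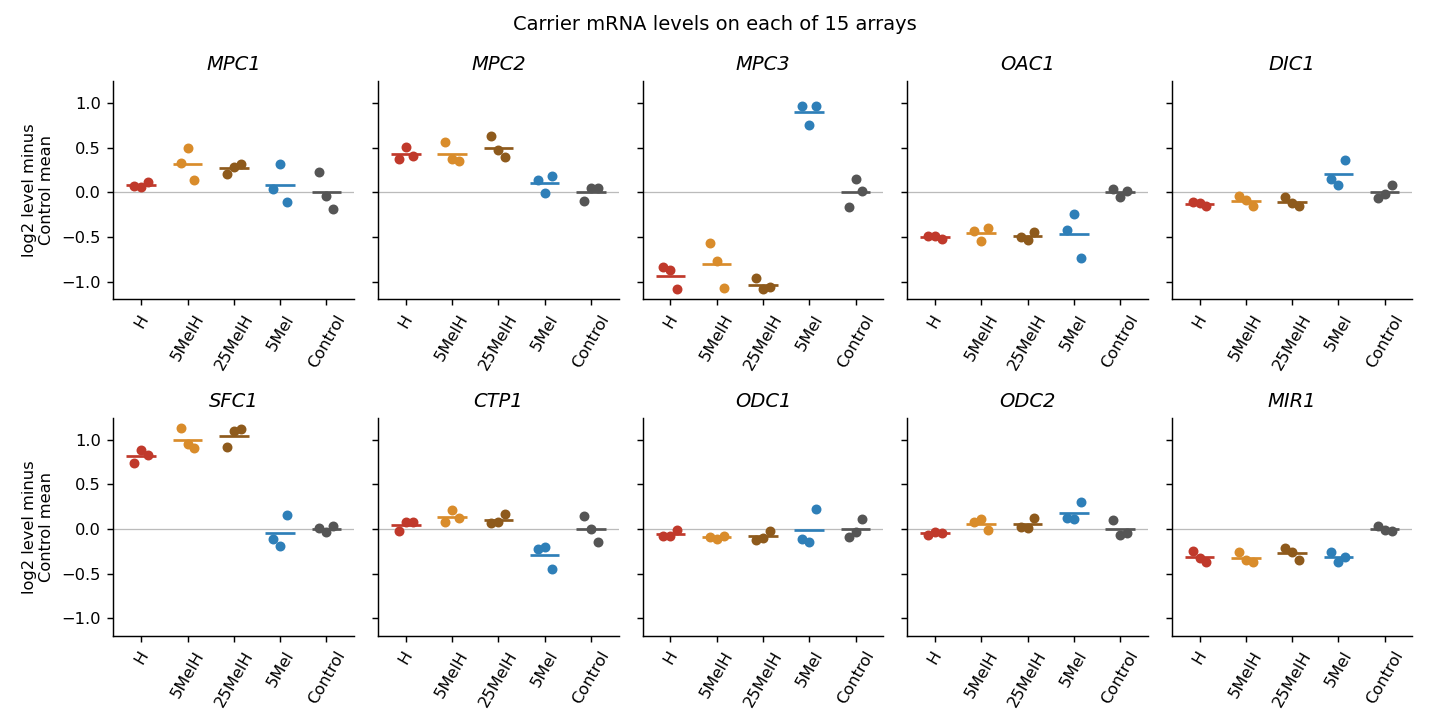
Level of each carrier mRNA on every array, as log2 level minus the mean of the 3 Control arrays (y axis), by condition (x axis). Points are single arrays and horizontal lines are means of 3. MPC3 was highest in 5Mel and lowest under peroxide, SFC1 and MPC2 were higher under peroxide (on this scale, not with spike-in scaling), and the means of ODC1 stayed within 0.09 log2 units of each other.

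MPC3, the subunit of the respiratory form of the pyruvate carrier, varied most among the 10 genes, in part through the 5Mel values that chose the set. Its condition means spanned 1.93 log2 units, wider than in 96.4% of all genes. The levels of MPC3 were -3.22, -3.43 and -3.23 on the 5Mel arrays, against -4.34, -4.04 and -4.18 on the Control arrays. Every 5Mel array thus lay above every Control array. The mean difference was 0.90 log2 units (SE 0.11), which is 1.86-fold, and it was 0.98 among arrays of slide 1 and 0.85 among arrays of slide 2. Here, and likewise for both peroxide comparisons (H vs. Control; 5MelH vs. 5Mel), one of the groups had a single array on each slide, so within-slide values are given without a test. Under peroxide the levels were -5.03, -5.05 and -5.27 in H, then -4.75, -4.95 and -5.26 in 5MelH and -5.14, -5.26 and -5.25 in 25MelH. All 9 peroxide-treated arrays lay below all 6 arrays without peroxide.

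The order of the MPC3 condition means was 5Mel, Control, 5MelH, H and 25MelH, high to low. The steps between 5Mel and Control and between Control and 5MelH separated all arrays, whereas the array ranges of 5MelH, H and 25MelH overlapped. As a description, MPC3 was 0.93 log2 units lower in H than in Control (1.91-fold) and 1.70 log2 units lower in 5MelH than in 5Mel (3.24-fold). In unscaled intensity, MPC3 read 576, 481 and 596 units in 5Mel and between 74.6 and 85.1 units in H, against 291, 255 and 321 units in Control. The negative control spots were more scattered on the 5Mel arrays, with SDs of 28.6 to 55.0 units against 6.17 to 8.89 units on the Control arrays. Their 95th percentile was at most 34.6 units on a 5Mel array, well below the MPC3 readings there. The 2 spots of the MPC3 probe differed by up to 0.82 log2 units, on array 1 of 5MelH, the widest gap of any member.

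MPC2, the subunit of the fermentative form of the pyruvate carrier, had levels of 4.17, 4.31 and 4.21 in H, against 3.70, 3.85 and 3.85 in Control. The H arrays did not overlap the Control arrays. Levels in 5MelH were 4.37, 4.17 and 4.15, against 3.94, 3.80 and 3.98 in 5Mel, again without overlap. In 25MelH they were 4.43, 4.27 and 4.20. Relative to the array percentile, MPC2 was thus highest in the 3 peroxide conditions, which spike-in scaling turned round. In unscaled intensity it ran from 49984 to 55154 units in H, below the 60175 to 83917 units in Control.

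MPC1, the partner common to both forms of the carrier, had the least separated arrays of the 3. It stood at -1.82, -1.83 and -1.78 in H and -1.86, -1.58 and -1.99 in 5Mel, against -1.66, -1.93 and -2.07 in Control. These 3 groups overlapped. The levels were -1.56, -1.40 and -1.75 in 5MelH and -1.68, -1.61 and -1.58 in 25MelH, all above the H arrays.

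Within each array, MPC3 could be set against MPC2 without any scaling between arrays. Relative to the Control mean, the log2 ratio of MPC3 to MPC2 averaged 0.79 ± 0.03 in 5Mel (SD, n = 3, range 0.76 to 0.83). It averaged -1.36 ± 0.14 in H, -1.23 ± 0.17 in 5MelH and -1.53 ± 0.06 in 25MelH, and the Control arrays lay between -0.06 and 0.10. The ratio shows only that the 2 paralogs differed in their change. It includes the 5Mel values that chose the set and was not tested. Cross-hybridisation between the paralogs could not be assessed from these values.

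**Figure D2:**
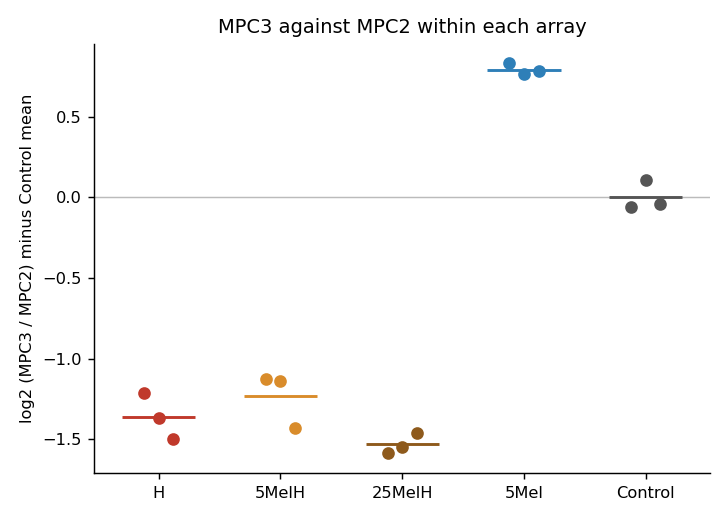
Log2 ratio of MPC3 to MPC2 within each array, minus the Control mean (y axis), by condition (x axis). Points are single arrays and lines are means of 3. The 5Mel arrays lay at 0.76 to 0.83 and all 9 peroxide-treated arrays below -1.12.

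Among the 5328 genes well above background on all arrays, the 5 whose pattern was most like that of MPC3 were YLR257W, COX5B, MAL31, AAC3 and BAT2. Likeness was the root mean square difference of levels over the 15 arrays after each gene was centred on its own mean. It was 0.14 for YLR257W and 0.16 for COX5B, the hypoxic form of a cytochrome c oxidase subunit. It was 0.20 for the maltose permease MAL31, 0.21 for the ADP/ATP carrier AAC3 and 0.21 for the cytosolic branched-chain aminotransferase BAT2, against a median of 0.72 over these genes. MPC3 had a root mean square of 0.74 about its own mean, the value that a gene with no change would score. The likeness used the 5Mel and Control values of MPC3 that chose the set. Higher 5Mel levels of these 5 genes thus come in part from how they were picked, and were not tested. AAC3 averaged -0.21 in 5Mel and -1.97 in H, against -0.87 in Control. BAT2 averaged 1.31 in 5Mel and -0.16 in H, against 0.89 in Control. MAL31 belongs to a family of close copies whose signals may be shared.

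Melatonin without peroxide was set against no treatment as a description. Apart from MPC3, the 5Mel arrays lay wholly above the Control arrays for DIC1 and ODC2 (whose means were lower with spike-in scaling) and wholly below them for OAC1, MIR1 and CTP1. In all, 3 members did not overlap upwards and 3 downwards, where 7.29% and 11.2% of all genes did. An adjusted p under 0.05 in this comparison was reached by 0.353% of all genes (22 genes, 13 higher and 9 lower). That count rests on few arrays and moved both ways with the processing. It was 5 higher and 4 lower with the replicate block. With the slide as a block or spike-in scaling it was 1 higher and 0 lower. It was 0 without array 3 of 5Mel and 1 without array 1 of 5Mel or any single Control array. Without array 2 of 5Mel it was 15 higher and 6 lower. Larger counts came with dim probes left out (34 higher, 28 lower) and with all 15 arrays in the fit (103 higher, 160 lower). Nothing is read from these member counts, since the set was chosen on this comparison.

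OAC1, the oxaloacetate carrier that also moves an intermediate of leucine synthesis, had levels of -2.92, -2.74 and -3.24 in 5Mel, against -2.46, -2.55 and -2.49 in Control. The mean difference was -0.47 log2 units (SE 0.14), with the 5Mel arrays more scattered than the Control arrays (SD 0.25 against 0.05). MIR1, the main phosphate carrier, had levels of 3.27, 3.16 and 3.22 in 5Mel, against 3.56, 3.52 and 3.50 in Control, a difference of -0.31 (SE 0.08). The citrate carrier CTP1 had levels of 0.02, 0.05 and -0.21 in 5Mel, against 0.39, 0.25 and 0.10 in Control, a difference of -0.29 (SE 0.12). For these 3 genes the 5Mel arrays were the lower ones throughout.

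DIC1, the dicarboxylate carrier that exchanges malate or succinate for phosphate, had levels of 0.18, 0.11 and 0.39 in 5Mel, against -0.04, 0.01 and 0.11 in Control (difference 0.20, SE 0.10). The lowest 5Mel array was just above the highest Control array. ODC2, one of a pair of 2-oxodicarboxylate carriers, had levels of 1.20, 1.19 and 1.38 in 5Mel, against 1.18, 1.02 and 1.04 in Control (difference 0.18, SE 0.10). MPC1, MPC2, SFC1 and ODC1 overlapped, with differences from -0.05 to 0.10. With scaling on the spike-in probes, all genes shifted by a median of -0.29, DIC1 became -0.07 and ODC2 -0.10, while MPC3 stayed higher at 0.62.

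Peroxide in cells without melatonin (H vs. Control) raised SFC1 and MPC2 and lowered OAC1 and MIR1 relative to the array percentile, while spike-in scaling turned the signs of SFC1 and MPC2 round. Of the 9 members tested, 2 were called higher and 2 lower at an adjusted p under 0.05 (limma, Benjamini-Hochberg over 6224 genes). In this comparison 27.2% of all genes were called higher and 41.2% lower, and with this scaling the members' share was no larger in either direction. With median centring 6 members and 2722 genes were called higher. The median change was -0.05 over the 10 members and -0.09 over all genes.

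SFC1, the succinate-fumarate carrier needed for growth on ethanol or acetate, had levels of -4.98, -4.83 and -4.89 in H, against -5.71, -5.75 and -5.69 in Control. The groups were far apart, and the log2 change was 0.81 (SE 0.05, limma adjusted p = 6.1e-05). In unscaled intensity the groups overlapped, at 88.0, 97.8 and 97.0 units in H against 113, 77.7 and 113 units in Control. The rise was thus one relative to the percentile, which was lower in H, and with spike-in scaling SFC1 was lower in H by -0.61 while the median of all genes was -1.51. It was 0.75 within slide 1 and 0.82 within slide 2.

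MPC2 rose by 0.43 (SE 0.06, limma adjusted p = 0.0016), and was lower in H by -0.99 with spike-in scaling. Its change was 0.40 within each slide. MPC1 changed by 0.08 (SE 0.11, limma adjusted p = 0.52, 95% interval -0.18 to 0.35), and by -1.34 with spike-in scaling. It passed with median centring (0.34, limma adjusted p = 0.028), with quantile normalisation (0.39, limma adjusted p = 0.028) and when array 1 of Control was left out (0.20, limma adjusted p = 0.033).

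OAC1 had levels of -2.99, -2.99 and -3.02 in H, against -2.46, -2.55 and -2.49 in Control. The H arrays were nearly identical and all lower, and the log2 change was -0.50 (SE 0.04, limma adjusted p = 1.9e-04). It was -0.48 within slide 1 and -0.52 within slide 2, and quantile normalisation reduced it to -0.04 (limma adjusted p = 0.34). MIR1 had levels of 3.28, 3.20 and 3.16 in H, against 3.56, 3.52 and 3.50 in Control, a log2 change of -0.31 (SE 0.05, limma adjusted p = 0.0018). It was -0.26 within slide 1 and -0.32 within slide 2, and -0.06 when arrays were centred on their median (limma adjusted p = 0.27).

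The other 4 tested members did not pass, with changes between -0.13 and 0.04. DIC1 came closest, at -0.09, -0.09 and -0.12 in H against -0.04, 0.01 and 0.11 in Control (log2 change -0.13, SE 0.05, limma adjusted p = 0.070), without overlap. CTP1 had levels of 0.22, 0.32 and 0.32 in H, inside the spread of Control. ODC1 and ODC2, the paired 2-oxodicarboxylate carriers, had changes of -0.05 and -0.05 with 95% intervals of -0.21 to 0.10 and -0.19 to 0.09.

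**Figure D3:**
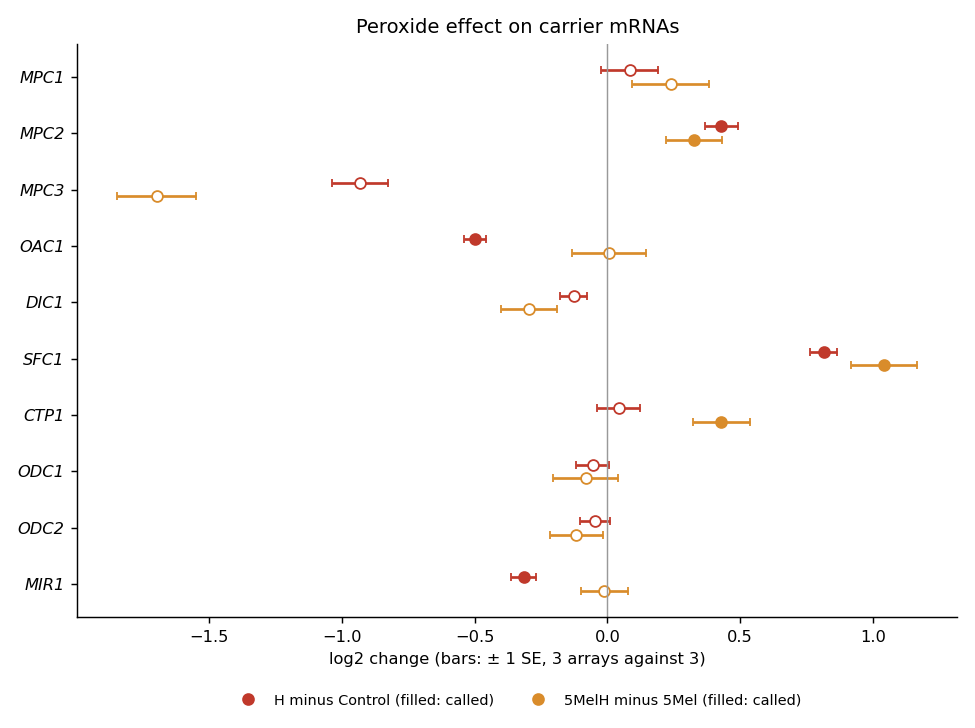
Log2 change of each carrier mRNA with peroxide (x axis), in cells without melatonin (H minus Control) and with 5 µM melatonin (5MelH minus 5Mel). Bars are ± 1 SE from 3 arrays against 3, filled points passed an adjusted p under 0.05, and MPC3 is open because it was not tested. SFC1 and MPC2 were called higher in both comparisons, OAC1 and MIR1 lower in H minus Control, and CTP1 higher in 5MelH minus 5Mel, with spike-in scaling reversing MPC2, CTP1 and the SFC1 value of H minus Control.

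Peroxide in melatonin-grown cells (5MelH vs. 5Mel) raised SFC1, CTP1 and MPC2 and lowered no tested member, while spike-in scaling turned the signs of CTP1 and MPC2 round and left SFC1 near 0. Thus 3 of 9 were called higher and 0 lower (1 lower at an unadjusted p under 0.05, DIC1, as were 33.7% of all genes), where 21.9% of all genes were called higher and 31% lower. The median change was -0.003 over the members and -0.05 over all genes. None of these arrays was used in H vs. Control.

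SFC1 had levels of -4.58, -4.77 and -4.81 in 5MelH, against -5.82, -5.91 and -5.56 in 5Mel. All 5MelH arrays were higher, with a log2 change of 1.04 (SE 0.13, limma adjusted p = 5.6e-04), which was 1.15 within slide 1 and 0.92 within slide 2. With spike-in scaling it was 0.03 (limma adjusted p = 0.90). In unscaled intensity the groups overlapped, at 104, 117 and 127 units in 5MelH against 94.4, 86.5 and 118 units in 5Mel. The SDs of the negative control spots on those 5Mel arrays were 28.6 to 55.0 units. CTP1 had levels of 0.33, 0.46 and 0.37 in 5MelH, against 0.02, 0.05 and -0.21 in 5Mel, a log2 change of 0.43 (SE 0.11, limma adjusted p = 0.013). It was 0.37 within slide 1 and 0.45 within slide 2, and -0.59 with spike-in scaling, against -1.07 for the median of all genes. CTP1 changed by only 0.04 in H vs. Control (limma adjusted p = 0.66), and its 5Mel mean of -0.05 lay below the 0.25 of Control.

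MPC2 rose by 0.32 in 5MelH (SE 0.11, limma adjusted p = 0.036). The call was near its threshold and was lost with the slide as a block (limma adjusted p = 0.079) and when any array other than array 3 of 5Mel was left out (limma adjusted p from 0.063 to 0.13), and with spike-in scaling the change was -0.69. DIC1 had levels of -0.01, -0.06 and -0.13 in 5MelH, against 0.18, 0.11 and 0.39 in 5Mel, a log2 change of -0.29 (SE 0.11, limma adjusted p = 0.051). MPC1 changed by 0.24 (SE 0.15, limma adjusted p = 0.20), by -0.78 with spike-in scaling, and by 0.46 with median centring and 0.48 with quantile normalisation, where it passed (limma adjusted p = 0.028 and 0.026).

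OAC1 stood at -2.94, -3.04 and -2.90 in 5MelH, against -2.92, -2.74 and -3.24 in 5Mel, and MIR1 at 3.27, 3.18 and 3.16 in 5MelH, against 3.27, 3.16 and 3.22 in 5Mel. Their log2 changes were 0.006 (95% interval -0.33 to 0.34) and -0.01 (95% interval -0.22 to 0.20). For both genes 5Mel, H, 5MelH and 25MelH lay close together, and Control alone was higher than all arrays of the other conditions. ODC1 and ODC2 changed by -0.08 and -0.12 and did not pass.

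Whether melatonin acted differently with and without peroxide was tested as the change of 5MelH vs. H minus that of 5Mel vs. Control. None of the 9 members tested passed, where 0.37% of all genes did (limma, 23 genes, 11 higher and 12 lower). Over all genes the count was 4 higher and 4 lower with the replicate block, 0 without array 1 or array 3 of H, and 82 higher and 59 lower without array 2 of 5Mel. At an unadjusted p under 0.05 there were 3 members, all with positive differences, as had 6.75% of all genes, and this test used the 5Mel and Control arrays. The differences were 0.50 for OAC1 (SE 0.15, limma adjusted p = 0.28), 0.39 for CTP1 (SE 0.13, limma adjusted p = 0.32) and 0.30 for MIR1 (SE 0.08, limma adjusted p = 0.26). OAC1 reached limma adjusted p = 0.041 when array 2 of 5Mel was left out, from which nothing is read. In 5MelH vs. H, OAC1, CTP1 and MIR1 changed by only 0.04, 0.09 and -0.009. Their differences thus lay mostly in 5Mel minus Control, the comparison given only as a description. The differences for MPC1 and MPC2 were 0.15 (SE 0.19) and -0.10 (SE 0.11), and for MPC3, as a description, -0.77.

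Melatonin in peroxide-treated cells changed no member past the threshold at either dose. In 5MelH vs. H, 0 of 10 members and 0% of all genes were called (limma; at an unadjusted p under 0.05, 12.5% of genes and 1 member). In 25MelH vs. H the counts were 0 of 10 members and 0% of genes (at an unadjusted p under 0.05, 15.9% of genes and 2 members). All 10 members could be tested here, including MPC3.

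MPC1 had the smallest p in both comparisons, with all melatonin arrays above the H arrays. Its log2 change was 0.23 in 5MelH (SE 0.09, 95% interval 0.0004 to 0.47, limma adjusted p = 0.40) and 0.18 in 25MelH (SE 0.04, 95% interval 0.08 to 0.29, limma adjusted p = 0.21). SFC1 behaved alike in its arrays, at -4.98, -4.83 and -4.89 in H, then -4.58, -4.77 and -4.81 in 5MelH and -4.80, -4.62 and -4.60 in 25MelH. Its log2 change was 0.18 in 5MelH (SE 0.08, limma adjusted p = 0.41) and 0.23 in 25MelH (SE 0.07, limma adjusted p = 0.26). ODC2 was 0.11 higher in 5MelH (SE 0.05, limma adjusted p = 0.44) and 0.10 higher in 25MelH (SE 0.04, limma adjusted p = 0.34), again without overlap with H. Both comparisons use the same H arrays and are not independent of each other.

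MPC3 was 1.86-fold higher in 5Mel than in Control, the difference the set was chosen on. It changed by 0.13 in 5MelH vs. H (SE 0.15, 95% interval -0.23 to 0.49) and by -0.10 in 25MelH vs. H (SE 0.08, 95% interval -0.30 to 0.10). The corresponding limma adjusted p values were 0.77 and 0.57. The log2 changes of MPC2 were 0.001 (95% interval -0.18 to 0.19) and 0.07 (95% interval -0.11 to 0.26). In all, 4 members lay wholly above H in 5MelH (MPC1, SFC1, CTP1 and ODC2) and 3 in 25MelH (MPC1, SFC1 and ODC2), where 13.7% and 13.6% of all genes did. ODC1 lay wholly below H in 5MelH (log2 change -0.04, SE 0.04, limma adjusted p = 0.75), and no member did in 25MelH.

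The higher dose did not separate from the lower one. In 25MelH vs. 5MelH no member and no other gene passed (limma; 1.38% of genes and no member at an unadjusted p under 0.05), and all 10 members overlapped, where 1.91% of genes lay wholly higher and 3.84% wholly lower. Changes lay between -0.23 for MPC3 (95% interval -0.56 to 0.10) and 0.07 for MPC2 (95% interval -0.15 to 0.29).

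**Figure D4:**
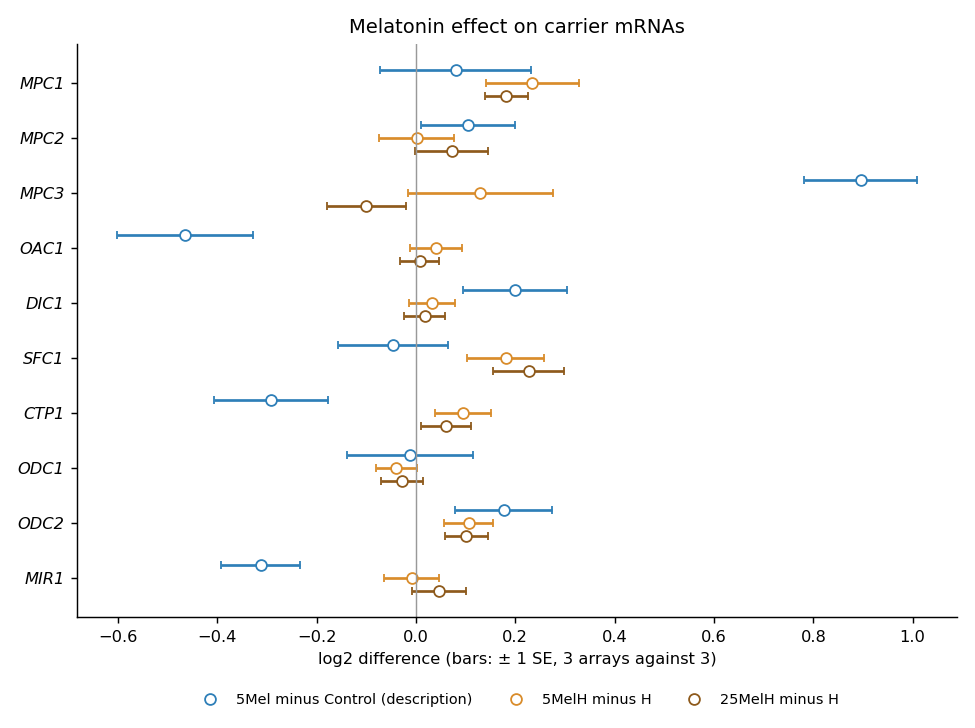
Log2 difference of each carrier mRNA with melatonin (x axis), for 5Mel minus Control (description only), 5MelH minus H and 25MelH minus H. Bars are ± 1 SE from 3 arrays against 3, and no tested difference passed. MPC3 stood at 0.90 without peroxide, the difference the set was chosen on, against 0.13 and -0.10 with peroxide.

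The condition means of ODC1 on the percentile scale spanned 0.09 log2 units, the least of the set and narrower than in all but 1.04% of genes, against a median span of 0.55 over all genes. Its array values ran from -2.17 to -1.79, both in 5Mel, so the arrays of that one condition covered the whole range. In unscaled intensity ODC1 read 648 to 705 units in H, against 1013 to 1550 units in Control. The condition means of ODC2, its paralog, spanned 0.22 log2 units, while its array values spanned 0.37 against 0.38 for ODC1.

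Beside the 10 members stood 26 other mitochondrial carriers, whose difference from the members was not tested. Among those, 1 was called higher and 21 lower in H vs. Control, with a median change of -0.61 (all genes 27.2% higher, 41.2% lower, median -0.09). In 5MelH vs. 5Mel, 2 were called higher and 18 lower, with a median of -0.60 (all genes 21.9% higher, 31% lower, median -0.05). The named genes of this list in H vs. Control were LEU5, involved in coenzyme A transport, with -2.35 (SE 0.09), FLX1, a FAD carrier, with -1.35, RIM2, a pyrimidine nucleotide carrier, with -1.16, and YIA6, a NAD carrier. YIA6 was well above background on 1 of 3 H arrays and on all 3 Control arrays, and its measured difference of -2.47 (SE 0.64) rests in part on H readings not well above background. With spike-in scaling, 0 of the 26 were called higher in either comparison.

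Among 15 genes of gluconeogenesis, the glyoxylate cycle and acetate use, which work with SFC1 during growth on ethanol or acetate, 2 were called higher and 8 lower in H vs. Control (median -0.36), where 27.2% of all genes were called higher and 41.2% lower. The cytosolic malate dehydrogenase MDH2 fell by 1.85 log2 units, the lactate and pyruvate permease JEN1 by 1.43, the isocitrate lyase ICL1 by 1.04 and the malate synthase MLS1 by 1.03. JEN1 and MLS1 were well above background on 1 of 3 H arrays each. PCK1 was well above background on 2 of 3 Control arrays and 1 of 3 H arrays. SIP4 was so on 1 of 3 Control arrays and 0 of 3 H arrays. Counts for this list thus include readings not well above background. SFC1 itself was higher, by the 0.81 given above. In 5MelH vs. 5Mel, 1 was called higher and 5 lower (median -0.13), where 21.9% of all genes were called higher and 31% lower.

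A further list held 15 genes of branched-chain amino acid synthesis, its pyruvate, malate and glutamate supply, and the amino acid permease BAP2. OAC1 serves this synthesis by carrying a leucine precursor. Of these 15 genes, 4 were called higher and 5 lower in H vs. Control (median -0.06), shares close to or below the 27.2% and 41.2% of all genes. The acetohydroxyacid reductoisomerase ILV5 fell by 1.58, BAT2 by 1.04 and the dihydroxyacid dehydratase ILV3 by 0.73, while the isopropylmalate isomerase LEU1 rose by 0.76 on the percentile scale, though spike-in scaling called all 15 genes lower. In 5MelH vs. 5Mel, 3 were called higher and 6 lower (median -0.10), where 21.9% of all genes were called higher and 31% lower. None of these 3 lists had a called gene in 5MelH vs. H, 25MelH vs. H or 25MelH vs. 5MelH (limma).

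**Figure D5:**
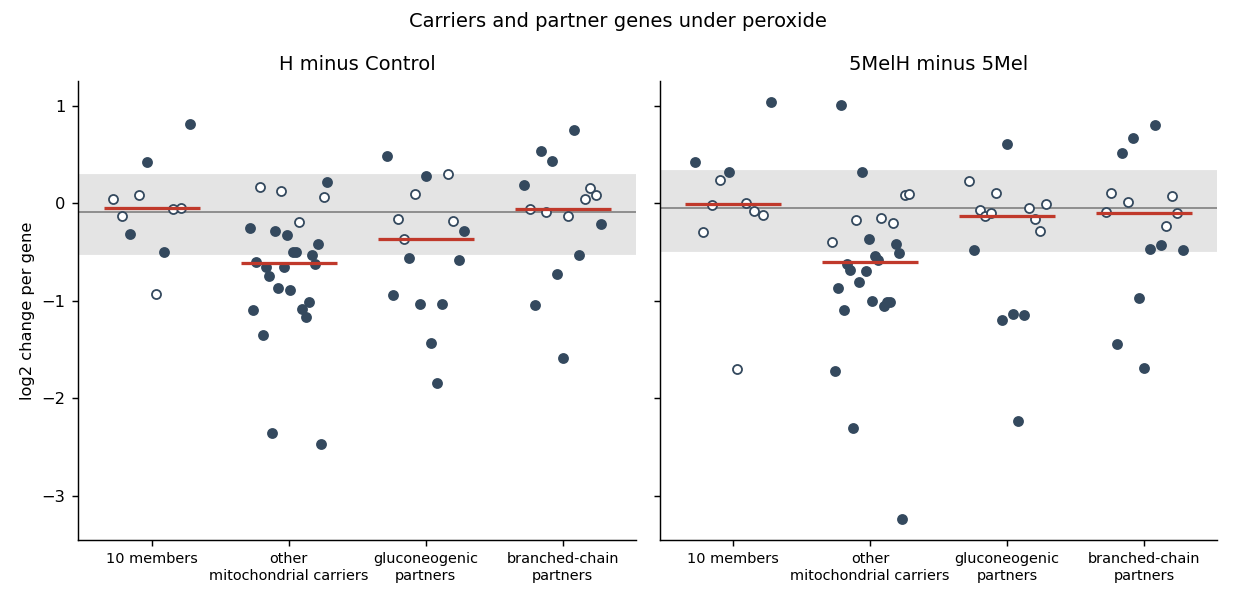
Log2 change per gene with peroxide (y axis), H minus Control on the left and 5MelH minus 5Mel on the right, for the 10 members, 26 other mitochondrial carriers, 15 gluconeogenic partners and 15 branched-chain partners (x axis). Filled points were called, red lines are medians of the list, and the grey band and line give the quartiles and median of all genes. The other carriers had medians of -0.61 and -0.60, against -0.05 and -0.003 for the members.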

How the data were processed

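Whole-genome Agilent arrays of S. cerevisiae QA23 were used, 15 in all, each a biological replicate per the labels. The authors deposited Feature Extraction (version 12.0.1.1) tables of intensity values, background-corrected by the scanner software, with flags for outlier spots and for spots well above background. The authors also deposited a table of normalised log2 values, of which 6 of 15 columns equalled the scanner values of their own sample and 9 those of another condition: columns named 5Mel held the 5MelH values, those named H the 5Mel values and those named 5MelH the H values (lowest r at the match 0.99992, highest other r 0.9023). The scanner tables were used, and that table only as an alternative, its columns paired with the scanner tables they equalled. The 75th percentiles of the scanner tables titled 5Mel lay among those of Control, and those of the arrays titled as peroxide-treated lay below both.

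From the intensity values, spots of a probe (2 per array) were averaged on the log2 scale, flagged spots left out, each array's 75th percentile subtracted and 1 probe kept per gene (the brightest, 6224 genes). Comparisons were fitted with limma 3.58.1 in R 4.3.3 on the arrays compared, a moderated test with 75th percentile scaling as the methods of the study name it (run there in GeneSpring), with p-values adjusted by Benjamini-Hochberg across the 6224 genes and called under 0.05. In simulated data for H vs. Control, with 200 of 6217 genes changed, 94% of genes changed by -1, 90% by 1, 92% by -2 and 98% by 2 log2 units were called. Changes under 1 log2 unit, the size of all tested member changes in H vs. Control, were not simulated. The measured data also had far more genes called (27.2% higher, 41.2% lower), so these shares are no measure of power for the members. The members and gene lists were chosen with earlier results of these data known. All members are named with their levels. Changes are given for members called or otherwise for those with the smallest p, always for the MPC genes, and for up to 4 called genes of each other list with the largest changes in H vs. Control.

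Alternatives were normexp background correction, median, quantile and spike-in scaling, a filter on dim probes, all arrays in 1 fit, slide and replicate blocks, single slides and arrays left out. Normexp used the median foreground signal because the mean is not in the tables used here. Same-numbered arrays deviated weakly alike in 5Mel vs. Control (r of deviations 0.11 to 0.28) and 5MelH vs. H (0.14 to 0.31). In the other comparisons not all pairs did, and in 25MelH vs. H r ran from -0.46 to 0.28. The labels give replicate numbers but no pairing, so whether these samples were paired cannot be told. The main tests were unpaired, with the replicate block as an alternative. The number of arrays limits the precision. Python with matplotlib drew the figures.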

Additional observations from a re-analysis of the deposited data

How the results depend on the processing

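Array values kept their direction and their side of the threshold in most alternatives, and the causes of the exceptions below were not tested. Calls of members in H vs. Control (2 higher, 2 lower) became 6 higher and 1 lower with median centring and 4 higher with quantile normalisation. Under spike-in scaling they were 0 higher and 9 lower. In 5MelH vs. 5Mel (3 higher, 0 lower) there were 1 lower with normexp and 2 lower with quantile normalisation. There was 1 lower without dim probes and 1 lower with all 15 arrays in the fit. Spike-in scaling gave 0 higher and 8 lower. At an unadjusted p under 0.05, 1 member was lower in 5MelH vs. 5Mel, and 1, 2 and 3 were higher in 5MelH vs. H, 25MelH vs. H and the test of unequal melatonin effects. Other mitochondrial carriers in H vs. Control (1 higher, 21 lower) had 3 higher with normexp and with median centring, 2 with quantile normalisation, 0 with spike-in scaling or within either slide, and 11 lower within slide 2. In 5MelH vs. 5Mel (2 higher, 18 lower) they had 1 higher with normexp, without dim probes and with slide blocked. Spike-in scaling left 0 higher. Gluconeogenic partners in H vs. Control (2 higher, 8 lower) had 7 higher with normexp. Under spike-in scaling they had 0 higher and 15 lower, including the dim SIP4 and PCK1. In 5MelH vs. 5Mel (1 higher, 5 lower) they had 3 higher with median centring and with quantile normalisation. With all 15 arrays in the fit 2 were higher, and with normexp 2 were lower. With spike-in scaling 0 were higher and 14 lower. Branched-chain partners in H vs. Control (4 higher, 5 lower) had 8 higher with median centring, and 0 higher and 15 lower under spike-in scaling. In 5MelH vs. 5Mel (3 higher, 6 lower) they had 0 higher and 13 lower with spike-in scaling. The split of all genes in H vs. Control (1695 higher, 2563 lower) was 2722 and 1687 with median centring, 2266 and 1817 with quantile normalisation, 2582 and 2083 with normexp, but 20 and 5938 under spike-in scaling. The split in 5MelH vs. 5Mel (1366 higher, 1928 lower) was 2287 and 1307 with median centring, 1632 and 1316 with quantile normalisation and 47 and 5251 with spike-in scaling.

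The MPC3 difference in 5Mel was 0.74 with normexp and 0.62 under spike-in scaling. Signs reversed with spike-in scaling in H vs. Control for MPC1 (-1.34), MPC2 (-0.99) and SFC1 (-0.61), and in 5MelH vs. 5Mel for MPC1 (-0.78), MPC2 (-0.69) and CTP1 (-0.59). They also reversed for MPC1 in H vs. Control within slide 1 (-0.018), and for MPC2 in 5MelH vs. H with median centring (-0.0068), quantile normalisation (-0.036), the slide as a block (-0.0040) and within slide 2 (-0.11). MPC3 in 5MelH vs. H became -0.017 with normexp and -0.099 within slide 2. In 25MelH vs. H, MPC2 became -0.060 with normexp, -0.075 with spike-in scaling and -0.058 within slide 2, and ODC2 -0.0059 with normexp and -0.045 under spike-in scaling. In 25MelH vs. 5MelH, MPC1 became 0.31 with normexp and 0.18 within slide 2, MPC2 -0.095 with normexp and -0.21 under spike-in scaling, MIR1 -0.092 with normexp and -0.23 under spike-in scaling, and MPC3 0.014 within slide 2. Normexp on array 2 of 25MelH gave values far from the other arrays, and with it MPC3 was 1.22 in 25MelH vs. H and 1.24 in 25MelH vs. 5MelH. Without that array, an alternative chosen after seeing the data, these were 0.079 and 0.096. In the test of unequal melatonin effects, MPC1 was -0.24 within slide 2 and MPC2 0.31 with spike-in scaling.

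Within a slide, one group of H vs. Control and of 5MelH vs. 5Mel had a single array, assumed to vary like the other groups. Counts called within a slide are therefore left out, except those of the other mitochondrial carriers in H vs. Control above. Nothing is read from those within-slide counts, since they rest on a single array in one group. Leaving out 1 array at a time, members called lower in 5MelH vs. 5Mel ranged from 0 to 1, members called in the test of unequal melatonin effects from 0 to 1, and other carriers called higher in 5MelH vs. 5Mel from 0 to 2. MPC1 in H vs. Control ranged from -0.0081 to 0.20, MPC2 in 5MelH vs. H from -0.066 to 0.040 and MPC1 in 25MelH vs. 5MelH from -0.14 to 0.035. The first 2 of these counts changed without array 2 of 5Mel. With the replicate block, the count of members called higher in 5MelH vs. 5Mel was 2, because MPC2 had a limma adjusted p of 0.050. It moved no other call of a named member. Small differences of dim probes are limited by the scatter of negative controls.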
